A study of Mus musculus with 4 samples.

Results

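The genes described here encode the integrins, the laminins and 5 proteins that link or decorate basement membranes. They were chosen by name from the platform's gene symbols: integrin alpha genes (Itga plus a number or 1 letter), integrin beta genes (Itgb plus 1 digit), laminin chain genes (Lama, Lamb or Lamc plus 1 digit), and Nid1, Nid2, Hspg2, Npnt and Agrn. This gave 38 of the 18193 genes measured, carried by 85 of 45037 probe sets, and each gene was represented by its probe set of highest mean signal over the 4 arrays. Itga2b and Itgb2l fall outside the naming pattern, and Itga11, Itgad and Lamb4 were not analysed here.

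In all, 2 groups of podoplanin-selected cells from the tumour-draining axillary lymph node of female SCID/NOD mice were compared, with 2 arrays each. The metastatic group came from mice aged 6 to 8 weeks with subcutaneous tumours of human 293-VEGF-D cells, which overexpress the lymphatic growth factor VEGF-D, and the non-metastatic group from mice of the same strain, sex and age with tumours of 293-Apex cells. Nodes were taken 3 to 4 weeks after injection, at tumour volumes of 1600 to 2500 mm3, and each preparation pooled the nodes of 1 to 5 mice. Nodes of the metastatic group entered only when visibly enlarged. The sorting label gives a depletion of tumour cells and leukocytes before culture for that group and none for the non-metastatic group. The growth protocol describes depletion for all preparations, so whether this step differed is not settled. Any such difference, the choice of enlarged nodes and the type of tumour cannot be told apart. Cells of both groups were cultured briefly and then selected with beads against podoplanin. The titles call the 2 preparations of each group biological replicates.

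The fraction is labelled as enriched in endothelial cells. Of 8 endothelial markers, 4 had a mean signal under the median of all probe sets (5.95), among them Pecam1 and Cdh5. Of 6 lymphatic markers 3 were under that median, and of these the lymphatic transcription factor gene Prox1 was dim on all 4 arrays (4.12 and 3.74 on the metastatic arrays, 4.17 and 3.96 on the non-metastatic ones). Of 7 fibroblastic markers, 1 was under that median, and the platelet-derived growth factor receptor gene Pdgfrb had 12.38 and 12.13 against 12.26 and 12.30. All values are log2 signals after quantile normalization, and the signals of different probe sets do not compare the amounts of their transcripts.

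Basement membranes are thin sheets of matrix under endothelium and epithelium and around muscle cells. Laminins, trimers of an alpha, a beta and a gamma chain, assemble into a network that nidogens, perlecan and agrin connect to collagen IV and to the cell surface. Integrins, pairs of an alpha and a beta chain in the cell membrane, bind laminins, collagens or proteins with an RGD sequence, and link them to the actin cytoskeleton. In lymph nodes, fibroblastic reticular cells wrap the collagen fibres of the conduits in a basement membrane, and vessels have one of their own.

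The comparison asks which of these genes differed between nodes draining metastatic and non-metastatic tumours. The largest differences were lower signals of the matrix proteins nephronectin (Npnt) and nidogen-2 (Nid2) and of the collagen receptor chain integrin alpha-1 (Itga1) in the metastatic group, at 3.12-fold, 2.80-fold and 2.02-fold. The laminin chain genes Lama3 and Lamb2 and the integrin chain gene Itgb8 were lower by smaller amounts. The bright members Itgb1, Itgav, Lamb1, Lamc1 and Nid1 had mean differences within 0.20 log2 units. In cell mixtures such as these, fewer cells of a type and less RNA per cell cannot be told apart.

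The differences, metastatic minus non-metastatic, were fitted with limma over all 45037 probe sets. None of the 38 members passed an adjusted p under 0.05 (Benjamini-Hochberg; 0% of the 18193 genes did), and Npnt came closest, at 0.118. At an unadjusted p under 0.05, 6 members were lower, where 4.07% of all genes were, and 0 were higher, where 2.63% were (6.70% in either direction). Both metastatic arrays lay below both non-metastatic arrays for 12 members, against 17.3% of all genes, and above them for 5, against 17.2%. A difference of at least 1 log2 unit downward was seen for 3 members, where 0.704% of all genes had one, and for 0 upward, where 0.242% had one. Of the 38 members, 24 were lower and 14 higher, with a median difference of -0.089, and the median over all genes was -0.00034. The median turned to 0.022 without metastatic replicate 1 and was -0.20 without metastatic replicate 2. With 2 arrays against 2, an exact two-sided permutation test of 1 gene cannot give a p below 0.33.

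**Figure D1:**
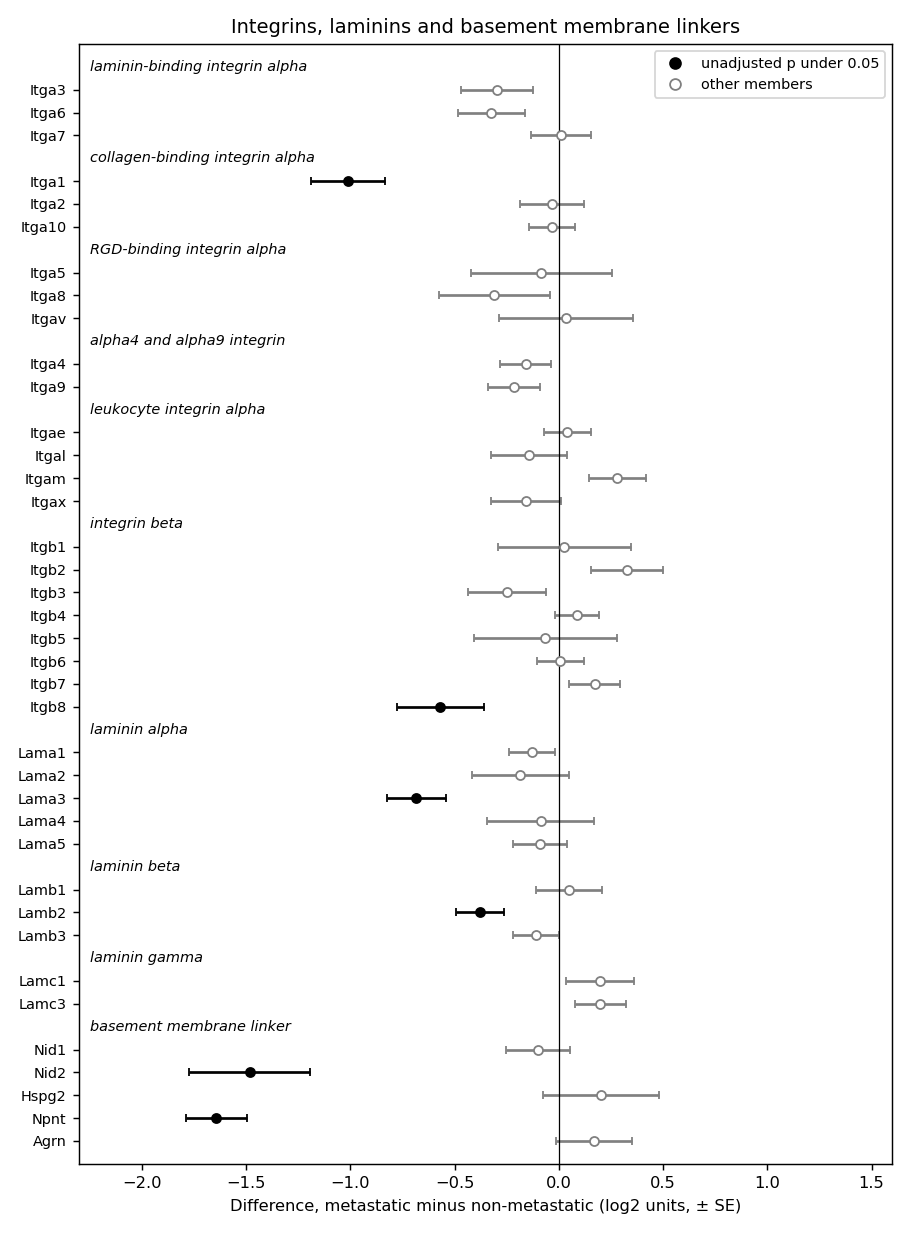
Difference of each of the 38 members in log2 units, metastatic minus non-metastatic, with the SE of the limma fit, ordered by role; filled points have an unadjusted p under 0.05. The 6 filled points, Npnt, Nid2, Itga1, Lama3, Itgb8 and Lamb2, all lie below 0.

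Of the members at least 1 log2 unit lower, Npnt and Itga1 are shown with the 250 bases before their annotated start (RefSeq, GRCm38.p6), so that the sequence in front of these genes can be read beside their values. The Npnt stretch is chr3:132950292-132950541 on the minus strand, at the outer of 2 starts, and the Itga1 stretch is chr13:115101965-115102214 on the minus strand. Capitals mark the GC box GGGCGG and the TATA box TATAAA on either strand.
Npnt: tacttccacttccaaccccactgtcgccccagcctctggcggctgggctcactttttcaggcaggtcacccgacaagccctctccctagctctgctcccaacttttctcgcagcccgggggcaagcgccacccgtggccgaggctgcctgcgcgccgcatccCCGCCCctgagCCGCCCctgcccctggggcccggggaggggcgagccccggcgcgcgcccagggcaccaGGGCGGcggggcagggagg
Itga1: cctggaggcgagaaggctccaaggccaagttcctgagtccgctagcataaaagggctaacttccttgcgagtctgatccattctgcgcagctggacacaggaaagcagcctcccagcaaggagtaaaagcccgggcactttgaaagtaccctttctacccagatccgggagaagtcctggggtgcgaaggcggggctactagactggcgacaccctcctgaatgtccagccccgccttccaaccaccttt
The printed Npnt stretch holds 3 GC boxes and the Itga1 stretch none, and neither holds the TATA letters. The stretch before the inner start of Npnt, chr3:132949815-132950064, holds no match to either motif and is 69.6% G and C. Over 32851 promoters of the same length, 32.7% hold a GC box and 12.4% a TATA box. G and C make up 74.0% of the printed Npnt stretch and 57.6% of the Itga1 stretch, against a median of 52.4% over all these promoters. RefSeq entries were matched for 25 of the 38 members.

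Among the linkers, the strongest differences were those of Npnt and Nid2, while Nid1, Hspg2 and Agrn overlapped between the groups. Npnt encodes nephronectin, a basement membrane protein that binds integrin alpha-8 beta-1. Its signal was 7.11 and 7.44 on the metastatic arrays and 8.89 and 8.95 on the non-metastatic ones, a difference of -1.64 (SE 0.15). The groups stood apart by more than the replicates of either group did. The value ranged from -1.47 to -1.81 with each array left out in turn. Of the 5 probe sets of Npnt, 4 were lower at an unadjusted p under 0.05, at -1.64, -1.44, -0.40 and -0.39, and the dimmest stood at -0.092, so that the mean over its probe sets gave -0.79. The receptor chain gene Itga8 had 6.00 and 5.26 against 5.75 and 6.12, and the groups overlapped.

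Nid2 encodes nidogen-2, which ties the laminin network to collagen IV. Its signal was 8.31 and 7.90 on the metastatic arrays and 9.18 and 10.00 on the non-metastatic ones, a difference of -1.48 (SE 0.29, limma adjusted p = 0.396). The groups did not overlap, and the non-metastatic replicates were 0.81 apart. The related linker Nid1 had 13.08 and 13.41 against 13.26 and 13.43, a difference of -0.10 (SE 0.15), with both groups covering nearly the same range. For Hspg2, which encodes the heparan sulfate proteoglycan perlecan, the values were 10.09 and 10.95 against 10.26 and 10.37. Agrn encodes agrin, which binds laminin and dystroglycan, and had 9.79 and 9.40 against 9.58 and 9.27, a difference of 0.17 (SE 0.18).

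The 3 measured collagen-binding integrin alpha genes had negative differences, where 50.1% of all genes were lower, and only that of Itga1 had an unadjusted p under 0.05. With 1 array left out, those of Itga2 (-0.21 to 0.15) and Itga10 (-0.080 to 0.015) turned sign. Itga1, whose protein pairs with beta-1 and binds collagen IV, had 5.67 and 5.98 on the metastatic arrays and 7.01 and 6.66 on the non-metastatic ones. The groups did not overlap, and the difference was -1.01 (SE 0.18, limma adjusted p = 0.362). A second, dimmer probe set of Itga1 stood at -0.0041 (SE 0.11), so the mean of both gave -0.51. Itga2, another collagen receptor chain, had 6.27 and 6.63 against 6.43 and 6.53, and Itga10 differed by -0.033 (SE 0.11). The main chains of collagen IV, Col4a1 and Col4a2, differed by -0.10 (SE 0.14) and -0.17 (SE 0.17).

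The laminin-binding chains Itga3 and Itga6 had lower values in the metastatic group without overlap, and Itga7 did not. Itga6, which pairs with beta-1 or beta-4, had 9.14 and 9.41 against 9.44 and 9.76, a difference of -0.32 (SE 0.16), and -0.17 without non-metastatic replicate 2. The upper metastatic and the lower non-metastatic array nearly met. Its other probe set had 9.01 and 8.81 against 9.46 and 9.47, a difference of -0.55 (SE 0.12) with an unadjusted p of 0.00421 in limma. Itga3 stood at -0.30 (SE 0.17), and at -0.068 without non-metastatic replicate 2, and its other 2 probe sets overlapped between the groups. Itga7 stood at 0.012 (SE 0.14). Itga9, required in mice for the valves of lymphatic vessels, had 6.93 and 7.11 against 7.16 and 7.31, a difference of -0.21 (SE 0.13). Its relative Itga4, a receptor chain for fibronectin and VCAM-1, stood at -0.16 (SE 0.12) at a signal under the median of all probe sets.

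**Figure D2:**
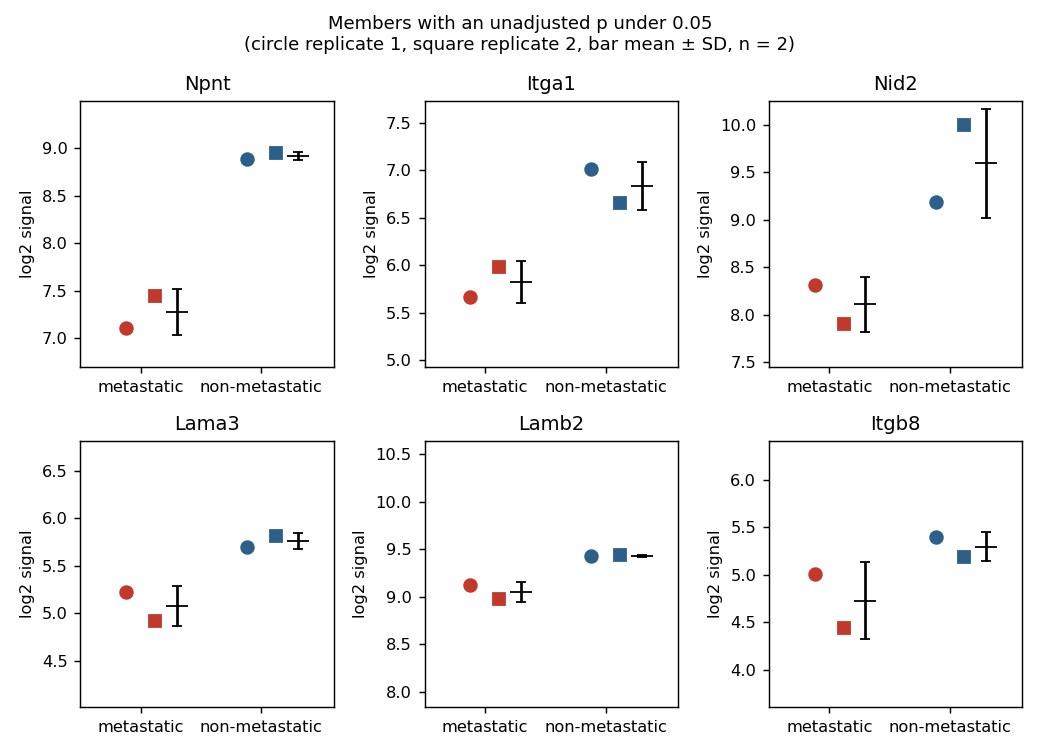
Log2 signal of the 6 members with an unadjusted p under 0.05, with circles for replicate 1, squares for replicate 2 and bars for the mean ± SD of 2 arrays; each panel spans the same number of log2 units. In each panel both metastatic arrays lie below both non-metastatic arrays, with the widest gap for Npnt.

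Of the 8 integrin beta genes 3 were lower and 5 higher, and Itgb8 was the 1 with an unadjusted p under 0.05. Itgb8 pairs with alpha-v and activates latent TGF-beta. Its signal was 5.01 and 4.44 on the metastatic arrays and 5.40 and 5.19 on the non-metastatic ones, a difference of -0.57 (SE 0.21, limma adjusted p = 0.772), all under the median of all probe sets. The value was -0.28 without metastatic replicate 2 and -0.86 without metastatic replicate 1, so it rests largely on the second metastatic array, and its unadjusted p was above 0.05 on leaving out that array (0.104) or either non-metastatic one (0.155 and 0.0579). Its partner Itgav had 11.66 and 12.68 against 12.14 and 12.13. Itgb3, which also pairs with alpha-v, had 6.25 and 6.02 against 6.62 and 6.15, and Itgb4 and Itgb6, chains typical of epithelium, differed by 0.088 (SE 0.11) and 0.0072 (SE 0.11).

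The widely expressed integrin chains differed more between the 2 metastatic preparations than between the groups. Itgb1, the partner of most matrix-binding alpha chains, had 11.91 and 12.87 on the metastatic arrays and 12.21 and 12.52 on the non-metastatic ones, so the metastatic arrays lay on both sides of the others. Itgb5, another partner of alpha-v, had 9.65 and 10.76 against 10.30 and 10.24. The fibronectin receptor chain Itga5 had 10.03 and 10.93 against 10.27 and 10.86. Metastatic replicate 2 was higher than replicate 1 by 1.10 for Itgb5, 1.03 for Itgav, 0.96 for Itgb1, 0.91 for Itga5, 0.86 for Hspg2 and 0.69 for Lama2. These were the 6 of 38 members with such a gap of 0.5 or more, which 3.94% of all genes had. All 4 probe sets of Itgb5 showed the gap, at 1.04 to 1.10, as did the brighter ones of Itgb1 and Itgav.

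**Figure D3:**
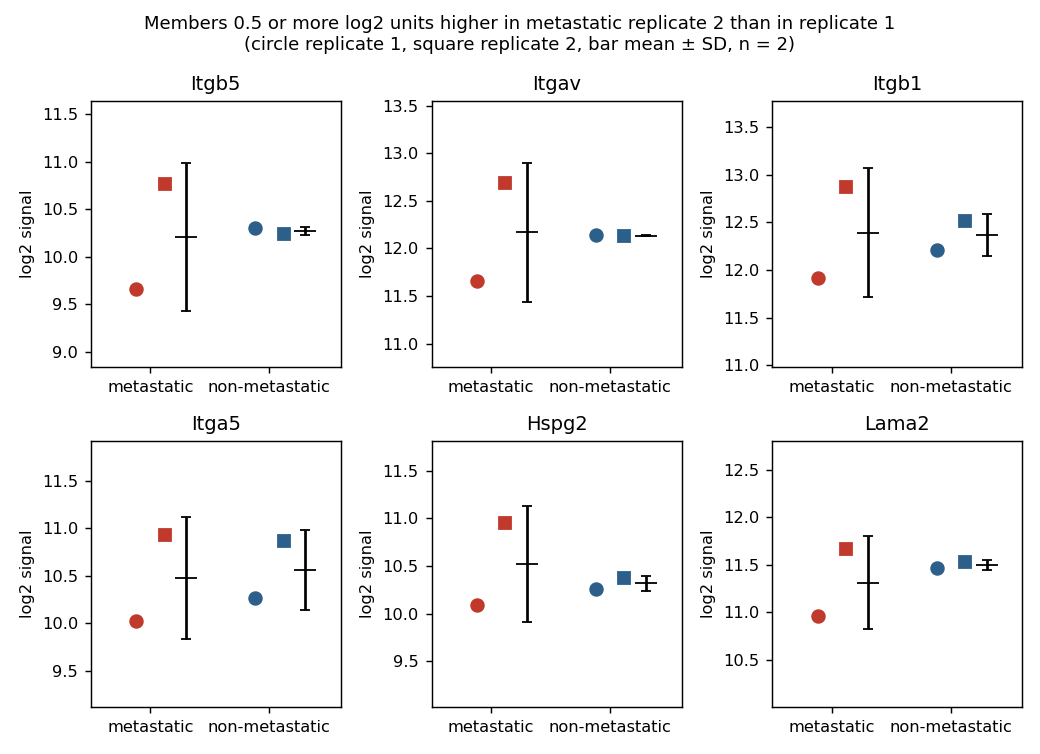
Log2 signal of the 6 members that were 0.5 or more higher in metastatic replicate 2 than in metastatic replicate 1, drawn as in the plot of the lower members. The metastatic arrays lie on both sides of the non-metastatic ones in every panel, and the non-metastatic replicates of Itga5 are 0.60 apart.

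The direction of these genes therefore depended on which metastatic array was used. Without metastatic replicate 2 Itgav stood at -0.48 and Itgb1 at -0.45, and without metastatic replicate 1 they stood at 0.55 and 0.51. Itga8 and Itgb8 ran the other way, lower in metastatic replicate 2 than in replicate 1 by 0.74 and 0.57. Of the 38 members, 26 had a larger gap between the replicates of at least 1 group than between the group means. The share of all genes with this was not counted, so it is not shown to be particular to the members. From metastatic replicate 1 to replicate 2, 6 members were higher by 0.5 or more and 2 were lower by as much. Metastatic gaps of that size were seen for 9.54% of all genes. In the non-metastatic group they were seen for 3 members and for 3.31% of all genes.

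All 5 laminin alpha genes had negative differences, of which 1, that of Lama3, had an unadjusted p under 0.05; 50.1% of all genes were lower. The sign turned for Lama2 (0.16) and Lama5 (0.013) without metastatic replicate 1 and for Lama4 (0.30) without non-metastatic replicate 1. Lama3 encodes the alpha chain of the laminin under stratified epithelium. Its signal was 5.22 and 4.92 on the metastatic arrays and 5.70 and 5.82 on the non-metastatic ones, a difference of -0.68 (SE 0.14, limma adjusted p = 0.426). The groups did not overlap, but the probe set was under the median of all probe sets and the other one of Lama3 stood at -0.0030 (SE 0.12). Its chain partner Lamb3 had 4.84 and 4.74 against 4.90 and 4.91, also dim. All 6 epithelial markers, Epcam and keratins among them, had negative differences, with 0 at an unadjusted p under 0.05 and summed linear signals of 514 to 554 against 547 to 581, and their part in the value of Lama3 was not tested.

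Lamb2, the beta chain of mature vessels, muscle and kidney, had 9.12 and 8.98 on the metastatic arrays and 9.42 and 9.44 on the non-metastatic ones. The difference of -0.38 (SE 0.11, limma adjusted p = 0.653) was the smallest of the 6 and was larger than the gap between replicates. Its unadjusted p was 0.0172, and it was above 0.05 with centred array medians (0.0605) and without non-metastatic replicate 1 (0.0881) or 2 (0.0964). The other beta chain of vessels, Lamb1, had 12.02 and 12.42 against 12.18 and 12.16, with the metastatic arrays on both sides. Lamc1, the gamma chain of most laminins, had 11.12 and 11.52 against 11.18 and 11.06, a difference of 0.20 (SE 0.16). Lamc3 stood at 0.20 (SE 0.12) without overlap.

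Of the endothelial and mesenchymal alpha chains, Lama2, typical of muscle, had 10.97 and 11.66 against 11.46 and 11.53. Lama4, an alpha chain of vessel walls, had 10.14 and 10.09 against 10.59 and 9.81, a difference of -0.088 (SE 0.25). Its other probe set had 7.91 and 7.64 against 7.53 and 6.72 and a difference of 0.65 (SE 0.27), so the 2 probe sets of Lama4 had opposite signs. Lama5, the other alpha chain of endothelium, stood at -0.090 (SE 0.13) and Lama1, an embryonic chain, at -0.13 (SE 0.11).

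**Figure D4:**
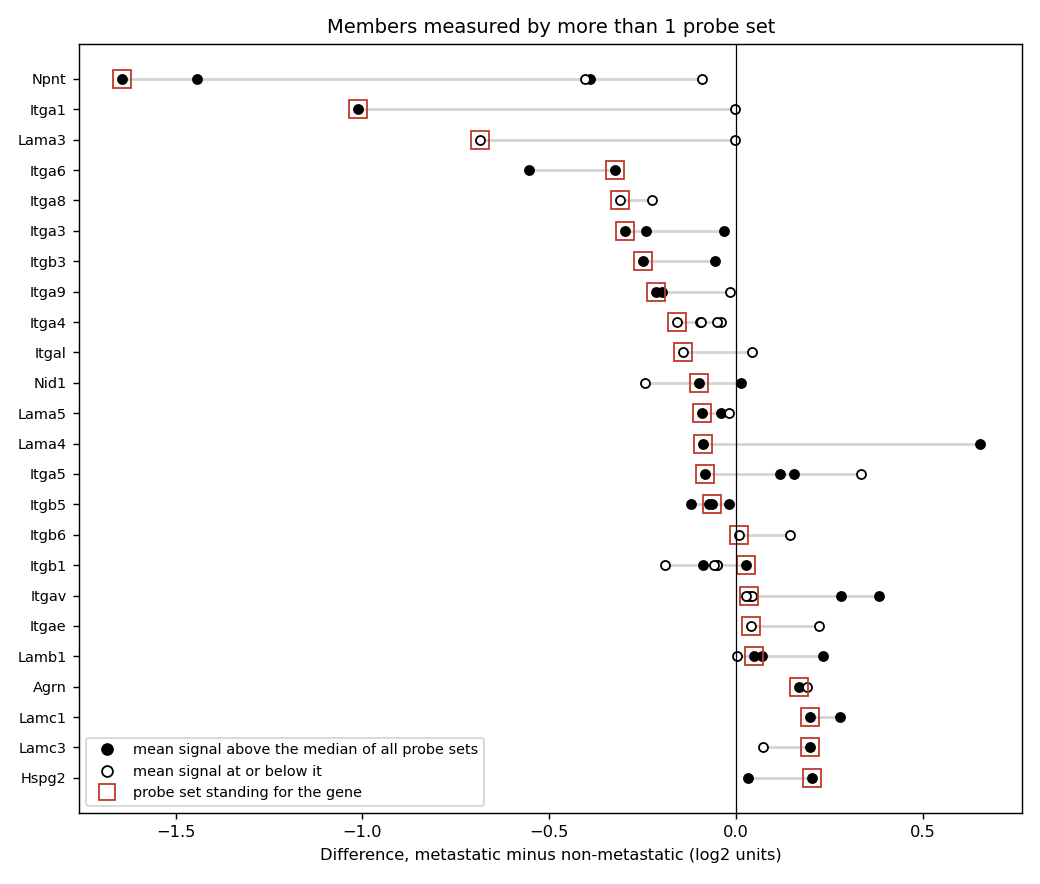
Differences in log2 units, metastatic minus non-metastatic, of every probe set of the 24 members with more than 1; squares mark the probe set that stands for the gene and open points those with a mean signal at or below the median of all probe sets. The probe sets of Npnt lie between -1.64 and -0.092, and those of Lama4 on both sides of 0.

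Of the leukocyte integrin genes Itgal, Itgam, Itgax, Itgae, Itgb2 and Itgb7, all but Itgb7 had a mean signal under the median of all probe sets. Itgb2, Itgam and Itgb7 had higher values in the metastatic group without overlap, where 17.2% of all genes did. No leukocyte integrin gene had an unadjusted p under 0.05. Itgb2, the common beta chain of leukocyte integrins, had 5.51 and 5.05 on the metastatic arrays and 4.95 and 4.96 on the non-metastatic ones, a difference of 0.33 (SE 0.17), and both metastatic arrays were above the others. It stood at 0.099 without metastatic replicate 1 and at 0.56 without metastatic replicate 2. Itgam, the alpha chain of the macrophage integrin Mac-1, had 4.63 and 4.41 against 4.33 and 4.15, a difference of 0.28 (SE 0.14). Itgal, of the lymphocyte integrin LFA-1, had 5.30 and 5.80 against 5.75 and 5.64 and Itgax, of dendritic cells and macrophages, 5.67 and 5.35 against 5.51 and 5.82, both overlapping. Itgb7, a beta chain of gut-homing lymphocytes, stood at 0.17 (SE 0.12) and Itgae, its partner on intraepithelial T cells, at 0.041 (SE 0.11). Among 8 leukocyte markers, Itgam included, 5 had negative differences and 3 positive ones, with summed linear signals of 1020 to 1214 in the metastatic group and 1566 to 1662 in the non-metastatic group. The lysozyme gene Lyz2 and the macrophage receptor gene Csf1r were the 2 lower at an unadjusted p under 0.05, at -1.47 (SE 0.44) and -0.54 (SE 0.16). The pan-leukocyte marker Ptprc was dim, at 4.28 and 4.01 against 4.13 and 4.08, and the part of leukocytes in these values was not tested.

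Genes that act with integrins inside the cell were mostly lower. Over all genes, 50.1% were lower, and 4.07% were lower at an unadjusted p under 0.05. Of 20 adaptors and kinases measured, 17 were lower and 3 higher. At an unadjusted p under 0.05, 5 were lower, with a list median of -0.22 and 0 passing the adjusted test. The lower values of this list rest on single arrays: without metastatic replicate 1, 11 of 20 were lower, with a median of -0.0052. Without metastatic replicate 2, 19 were lower, with a median of -0.45, and without non-metastatic replicate 2, 14 were lower, with a median of -0.15. The focal adhesion protein tensin-1 (Tns1) had 11.89 and 11.96 on the metastatic arrays and 12.57 and 12.60 on the non-metastatic ones, a difference of -0.66 (SE 0.11). Lims2, which joins integrin-linked kinase, stood at -0.52 (SE 0.16) and vinculin (Vcl), which links integrins to actin, at -0.56 (SE 0.20). All 3 were without overlap between the groups. Of 9 tetraspanins and membrane partners, 6 were lower, led by caveolin-1 (Cav1) at -0.41 (SE 0.11), the laminin-receptor partner Cd151 at -0.32 (SE 0.12) and the urokinase receptor gene Plaur at -0.57 (SE 0.25), and 2 had an unadjusted p under 0.05. Without metastatic replicate 2, 4 of the 9 were lower, with a median of 0.0017, and without either non-metastatic array 0 had such a p.

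**Figure D5:**
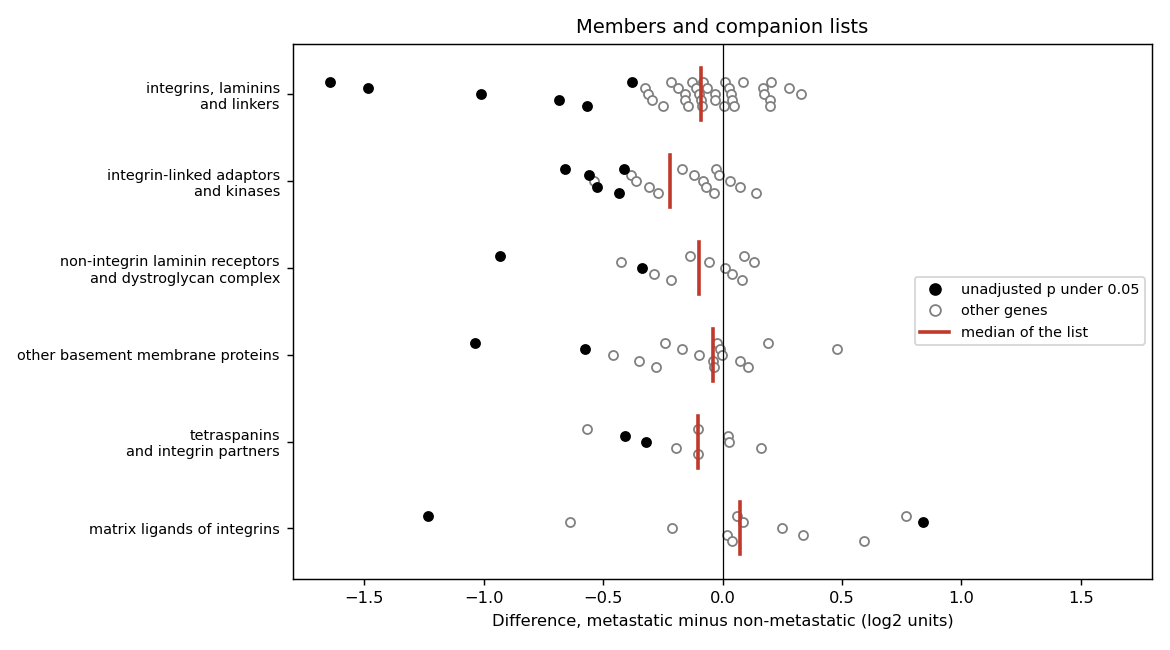
Differences in log2 units, metastatic minus non-metastatic, of the 38 members and of the genes of 5 companion lists; filled points have an unadjusted p under 0.05 and red bars are list medians. The adaptors and kinases have the lowest median, -0.22, and the matrix ligands a median of 0.072.

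Of 12 measured laminin receptor genes outside the integrin family, with those of the dystroglycan complex, 7 were lower and 5 higher, 2 of them lower at an unadjusted p under 0.05. That count was 5 without metastatic replicate 1 and 1 without either replicate 2. Dystrophin (Dmd), which ties dystroglycan to actin in muscle, had 7.37 and 7.53 on the metastatic arrays and 8.32 and 8.44 on the non-metastatic ones, a difference of -0.93 (SE 0.12). The laminin alpha-5 receptor gene Bcam stood at -0.34 (SE 0.13) and delta-sarcoglycan (Sgcd) at -0.29 (SE 0.12), and Dag1, dystroglycan itself, at -0.14 (SE 0.13). Of 17 other basement membrane genes 13 were lower and 4 higher, 2 of them lower at an unadjusted p under 0.05, a count of 5 without metastatic replicate 2. The 2 were netrin-4 (Ntn4), a laminin-related protein, with 6.85 and 6.59 against 7.83 and 7.69, and Smoc2, at -0.58 (SE 0.16), and the collagen IV chain gene Col4a6 stood at -0.46 (SE 0.19).

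Matrix proteins that integrins bind went in both directions. Of 12 measured, 9 were higher and 3 lower, but without metastatic replicate 1 the split was 6 and 6. Periostin (Postn), a ligand of alpha-v integrins, had 13.61 and 13.26 on the metastatic arrays and 12.64 and 12.54 on the non-metastatic ones, a difference of 0.84 (SE 0.15). Tenascin-C (Tnc), a ligand of alpha-9 and alpha-v integrins, had 8.26 and 9.67 against 10.25 and 10.14, a difference of -1.23 (SE 0.43), with the metastatic arrays 1.41 apart. Vitronectin (Vtn) stood at -0.21 (SE 0.11) and fibronectin (Fn1) at 0.25 (SE 0.13).

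Markers of smooth muscle and pericytes, cells with a basement membrane of their own, were mostly lower in the metastatic group. Of 8 such markers 7 were lower, 5 at an unadjusted p under 0.05, where 50.1% and 4.07% of all genes were. The dim Rgs5 stood at 0.032 (SE 0.12). The summed linear signal of the 8 was 17606 to 28542 in the metastatic group and 33815 to 35821 in the non-metastatic group. Most of it was that of Acta2 and Tagln. The smooth muscle actin gene Actg2 had 7.04 and 6.93 against 8.84 and 8.85. Endothelial markers were lower for 4 of 8 and higher for 4, with sums of 535 to 598 against 818 to 991. Most of that gap is the signal of Emcn, which had 6.50 and 5.66 against 8.77 and 8.45. It was the 1 endothelial marker with an unadjusted p under 0.05. Lymphatic markers were lower for 4 of 6. The lymphatic sums, 2002 to 2146 against 1674 to 1799, are mostly the signal of Pdpn, the gene of the selection antigen, which had 10.89 and 10.83 against 10.35 and 10.35. The lymphatic hyaluronan receptor gene Lyve1 had 6.32 and 4.23 against 8.26 and 7.80, a difference of -2.76 (SE 0.64) with an unadjusted p of 0.00571 in limma. Fibroblastic markers were lower for 3 of 7, with overlapping sums of 46171 to 51440 against 45330 to 51014. The part of any of these cell types in the values of the integrin, laminin and linker genes was not tested.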

How the data were processed

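RNA of 2 metastatic and 2 non-metastatic preparations was measured on 1 Affymetrix array each, from 3 ug of total RNA labelled with biotin, per the labels' protocols. The deposited values are log2 signals for each probe set, read from their range of 3.10 to 14.87. How the authors summarised probes or normalized arrays is not given in the sources used here. Array medians differed by 0.116, above the limit of 0.1, so the arrays were quantile normalized. Of 45101 probe sets, 64 controls were left out and no filter on dim ones was used. Platform symbols, single for 34945 probe sets, were updated through Entrez numbers. The probe sets standing for Hspg2, Itga5, Lamb1 and Itgb5 carry suffixes that mark possible binding to other transcripts. Others carry them too, among them the Npnt probe set at -1.44 and those of Tns1, Cd151 and Acta2. limma (lmFit, eBayes) gave differences and two-sided p-values with 2 residual degrees of freedom, with Benjamini-Hochberg adjustment across the 45037 probe sets.

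The members, role groups and lists were chosen with earlier results of these data known. Values per array were planned for members at an unadjusted p under 0.05, members without overlap and at least 0.5 apart, and the brightest of each role group. Up to 3 genes of smallest p were named per companion list. Col4a1, Col4a2, Dag1, Fn1 and the other values per array were chosen after their values were seen. The number of arrays limits the precision. Scripts were tested on simulated data and ran in R 4.3.3 with limma 3.58.1 and Python 3.11.15 with matplotlib 3.10.9.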

Additional observations from a re-analysis of the deposited data

How the results depend on the processing

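The counts and differences of the 38 members were recomputed with the deposited values, centred array medians, only the brighter probe sets, averaging over the probe sets of a gene, an intensity trend with robust moderation, the replicate number as a block, another reading of the naming rule (without Itgae), and each array left out. At an unadjusted p under 0.05 there were 4 to 7 members under the settings that kept all arrays, all of them lower, and 5 to 13 with 1 array left out. Without metastatic replicate 1 they were 7 lower and 5 higher (10.7% of all genes in either direction), and without metastatic replicate 2, 11 lower and 2 higher (15.6%). With all arrays kept, 3.52% to 5.77% of the genes tested were lower at an unadjusted p under 0.05 in limma. In either direction the shares were 5.99% to 9.56%. Both shares were highest with the replicate block, where 7 members were lower. The count of 4 was out of the 24 members left with only the brighter probe sets. The median difference ranged from -0.20 to 0.022 with 1 array left out. The difference of Npnt ranged from -1.81 to -1.47 with 1 array left out.

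Among the settings that kept all arrays, a member passed only with the replicate block, a pairing the labels do not state. It was Npnt (limma adjusted p = 0.0117), and 145 probe sets passed in all, against 0 in the main fit. Adjusted calls with 1 array left out are not counted here, as 1 group then has a single array. Replicate 1 minus replicate 2 correlated between the groups with r = 0.25 over 45037 probe sets. When all probe sets of a gene were averaged, Itgb1 turned to -0.069, Itga5 to 0.13 and Lama4 to 0.28, and Npnt had -0.79, Itga1 -0.51 and Lama3 -0.34. With the deposited values Itga7 turned to -0.014 and Itgb6 to -0.011. The differences of 19 members turned sign when 1 array was left out. They ranged from -0.21 to 0.15 for Itga2, -0.39 to 0.11 for Itgal, -0.48 to 0.55 for Itgav, -0.45 to 0.51 for Itgb1, -0.53 to 0.16 for Lama2, -0.15 to 0.25 for Lamb1, -0.0019 to 0.40 for Lamc1, -0.27 to 0.069 for Nid1, -0.62 to 0.49 for Itgb5, -0.23 to 0.63 for Hspg2, -0.54 to 0.37 for Itga5, -0.48 to 0.30 for Lama4, -0.68 to 0.060 for Itga8, -0.026 to 0.36 for Agrn and -0.19 to 0.013 for Lama5. Itga7, Itga10, Itgae and Itgb6 turned within 0.14 of 0. The cause was not tested. With 1 array left out, the spread of the group with a single array is taken from the other group. The deposited or centred values, chosen for these counts after seeing the data, gave counts of members without overlap within 1.5 times of those above. The companion lists, recomputed without each array after seeing the data, had 0 to 10 lower genes at an unadjusted p under 0.05 per list.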
